A study of Mus musculus with 4 samples.

Results

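The 10 genes described here belong to lipid storage and fatty acid metabolism: Cd36, Lpl, Fabp4, Plin2, Plin4, Pnpla2, Fasn, Scd1, Scd2 and Adipoq. They were chosen by symbol, and all 10 were found among the 22222 gene symbols of the deposited table. The data were 4 RNA-seq libraries of mouse keratoacanthomas, skin tumours of keratinocyte origin that can regress on their own. DMBA, a polycyclic hydrocarbon that causes cancer, was given for 20 weeks to raise the tumours, which were taken either 1 week after DMBA was stopped (2 mice) or while the mice were still on DMBA (week 0, 2 other mice). All 4 mice had therefore had the carcinogen, and no untreated skin was among the samples. Sorting kept Tomato+ cells that were also P-cadherin+, a gate labelled epithelial, and their RNA was sequenced. Strain, genotype, sex and age, and which allele drives Tomato, are not stated in the labels used here.

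Fatty acids enter cells through the scavenger receptor CD36, are freed from circulating lipoproteins by lipoprotein lipase (Lpl) and are carried in the cytosol by binding proteins such as FABP4. Surplus fatty acids are stored as triglyceride in lipid droplets, which perilipins (Plin2, Plin4) coat and from which adipose triglyceride lipase (Pnpla2) releases them. Cells also make fatty acids with fatty acid synthase (Fasn) and introduce a double bond with stearoyl-CoA desaturases (Scd1, Scd2). In skin, epidermis and sebaceous glands synthesise lipid for the barrier and for sebum, fat cells of the dermis store it, and macrophages and capillary endothelium take it up.

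Levels are given as scaled CPM, a gene's reads divided by a library size that the authors had scaled. The libraries held 5551937 and 7662159 reads at 1 week and 9678682 and 5635945 reads on DMBA, for replicates 1 and 2. A floor of 3 reads equals 0.356 to 0.538 scaled CPM, depending on the library, and covers counting error only. In every pair of values below, replicate 1 comes before replicate 2.

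The libraries carried epithelial transcripts to unequal degrees; the part of cell makeup in the lipid gene values was not tested. The summed level of 11 epithelial markers (Krt14, Krt5, Cdh3, Epcam and others) was 4270.2 and 3526 at 1 week, against 53753 and 546 on DMBA. For 11 macrophage markers the sum was 11027 and 15605 at 1 week, against 72.9 and 26584 on DMBA, and for 8 fibroblast markers it was 47407 and 50321 at 1 week, against 167 and 42142 on DMBA. On-DMBA replicate 1 was thus the library rich in keratinocyte transcripts, and the other 3 carried abundant RNA of stromal and immune cells despite the epithelial label. The sum of 10 endothelial markers was 650.5 and 1376 at 1 week, against 11.8 and 202 on DMBA. For all 10 the lower 1-week value exceeded the higher on-DMBA value, as it did for 14.0% of all genes tested. Sums of 13 adipocyte markers were 41.9 and 35.2 at 1 week, against 23.0 and 26.4 on DMBA, and sums of 10 sebocyte markers were 168 and 232 at 1 week, against 137 and 207 on DMBA. In bulk RNA, fewer cells of a type and less RNA per cell cannot be told apart.

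**Figure D1:**
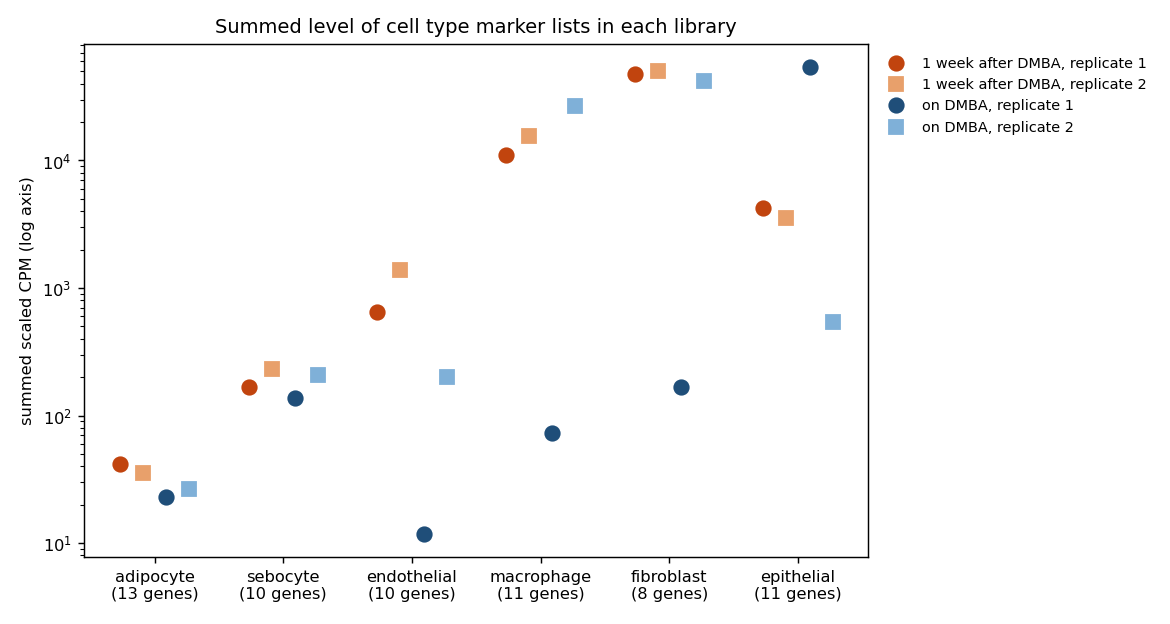
Summed level of each cell type marker list (scaled CPM, log axis) in each of the 4 libraries; every symbol is 1 library. On-DMBA replicate 1 stands at 53753 for epithelial markers and at 72.9 for macrophage markers, while the other 3 libraries lie at 546 to 4270.2 and at 11027 to 26584.

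No lipid gene passed the test of 1 week against on DMBA with all 4 libraries. Limma on log2(scaled CPM + 0.5) called 0 of the 9 lipid genes tested, beside 0 of 15419 genes overall (0%), at a Benjamini-Hochberg adjusted p under 0.05. Of the 9, 1 had an unadjusted p under 0.05 and was higher (Plin4; 2.28% of all genes were), and 1 was lower (Scd1; 0.195% of all genes were). edgeR called 0 of the 9 on recovered reads, again beside 0% of all genes, and DESeq2 called 0 of the 9 beside 0.123% of all genes. Adipoq lay under the filter of 1 scaled CPM in 2 libraries and was not tested. Without on-DMBA replicate 1 limma called 0 of the 9, beside 2.35% of all genes called higher and 0.999% called lower. Without on-DMBA replicate 2 it called 3 of the 9 higher (Cd36, Lpl and Plin4), beside 14.3% of all genes, and 4 of the 9 lower (Fabp4, Fasn, Scd1 and Scd2), beside 10% of all genes. Without either 1-week library it called 0 of the 9. With 2 against 2 libraries an exact two-sided permutation test of a single gene cannot go below 0.333. Fits without an on-DMBA library take their standard error mostly from a variance trend fitted over all genes. In fits without a 1-week library, the standard error also follows the gap between the on-DMBA replicates of each gene.

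Plin4 and Scd1 were the 2 lipid genes whose groups did not overlap, 1 in each direction. Over all genes tested, the groups did not overlap for 14.0% with higher values at 1 week and for 9.14% with lower values, so 1 of 9 in each direction (11.1%) was close to the background.

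Plin4 encodes a perilipin that coats lipid droplets, best known from fat cells and muscle. Its level was 8.75 and 11.8 scaled CPM at 1 week, against 1.78 and 2.15 scaled CPM on DMBA. These values rested on 56 and 83 reads at 1 week, against 15 and 12 reads on DMBA. Both 1-week libraries lay above both on-DMBA libraries, and the replicates of each group lay close together. The mean was 10.3 ± 2.18 scaled CPM at 1 week and 1.97 ± 0.263 scaled CPM on DMBA (SD, n = 2 each), a 5.23-fold higher mean at 1 week. The log2 difference was 2.12 (SE 0.68, 95% interval 0.40 to 3.83, limma adjusted p = 0.9997). The difference was 2.01 without on-DMBA replicate 1 (adjusted p = 0.0547) and 2.23 without on-DMBA replicate 2 (adjusted p = 0.00421, the only 1 of the 4 such fits in which Plin4 passed). The endothelial sum was also higher in both 1-week libraries, and its part in the Plin4 difference was not tested; within the on-DMBA group that sum was 11.8 and 202 while Plin4 was 1.78 and 2.15. Plin4 overlaps the oppositely transcribed gene Hdgfl2 by 17 bases in the GENCODE M21 annotation. That neighbour, listed under its older symbol Hdgfrp2, was at 50.5 and 49.8 scaled CPM at 1 week and 50.2 and 41.5 scaled CPM on DMBA.

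Scd1 encodes a stearoyl-CoA desaturase of sebaceous gland, liver and fat, which turns stearate into oleate. It stood at 16.7 and 29.8 scaled CPM at 1 week, against 84.0 and 60.7 scaled CPM on DMBA. Both 1-week libraries lay below both on-DMBA libraries. The mean was 23.3 ± 9.25 scaled CPM at 1 week and 72.3 ± 16.5 scaled CPM on DMBA (SD, n = 2 each). The log2 difference was -1.65 (SE 0.56, 95% interval -3.08 to -0.23, limma adjusted p = 0.9997), so it did not pass. It was -1.42 without on-DMBA replicate 1 (adjusted p = 0.18) and -1.89 without on-DMBA replicate 2 (adjusted p = 0.0029). The part of cell makeup in the Scd1 difference was not tested. The summed level of the 10 sebocyte markers, given above, overlapped between the groups. Most of that sum was Soat1 in both 1-week libraries and on-DMBA replicate 2, and Krt79 in on-DMBA replicate 1. Of the 7 sebocyte markers tested, 0 separated the groups, beside 23.2% of all genes tested. Their levels ran in different directions within the on-DMBA group: Krt79, a keratin of sebaceous ducts, was at 15.2 and 20.0 scaled CPM at 1 week, against 94.2 and 1.26 scaled CPM on DMBA, and Soat1, a sterol acyltransferase, was at 140.3 and 201 scaled CPM at 1 week, against 33.8 and 193 scaled CPM on DMBA. Scd3, a desaturase related to Scd1, was at 2.81 and 0.713 scaled CPM at 1 week, against 0.356 and 1.08 scaled CPM on DMBA.

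**Figure D2:**
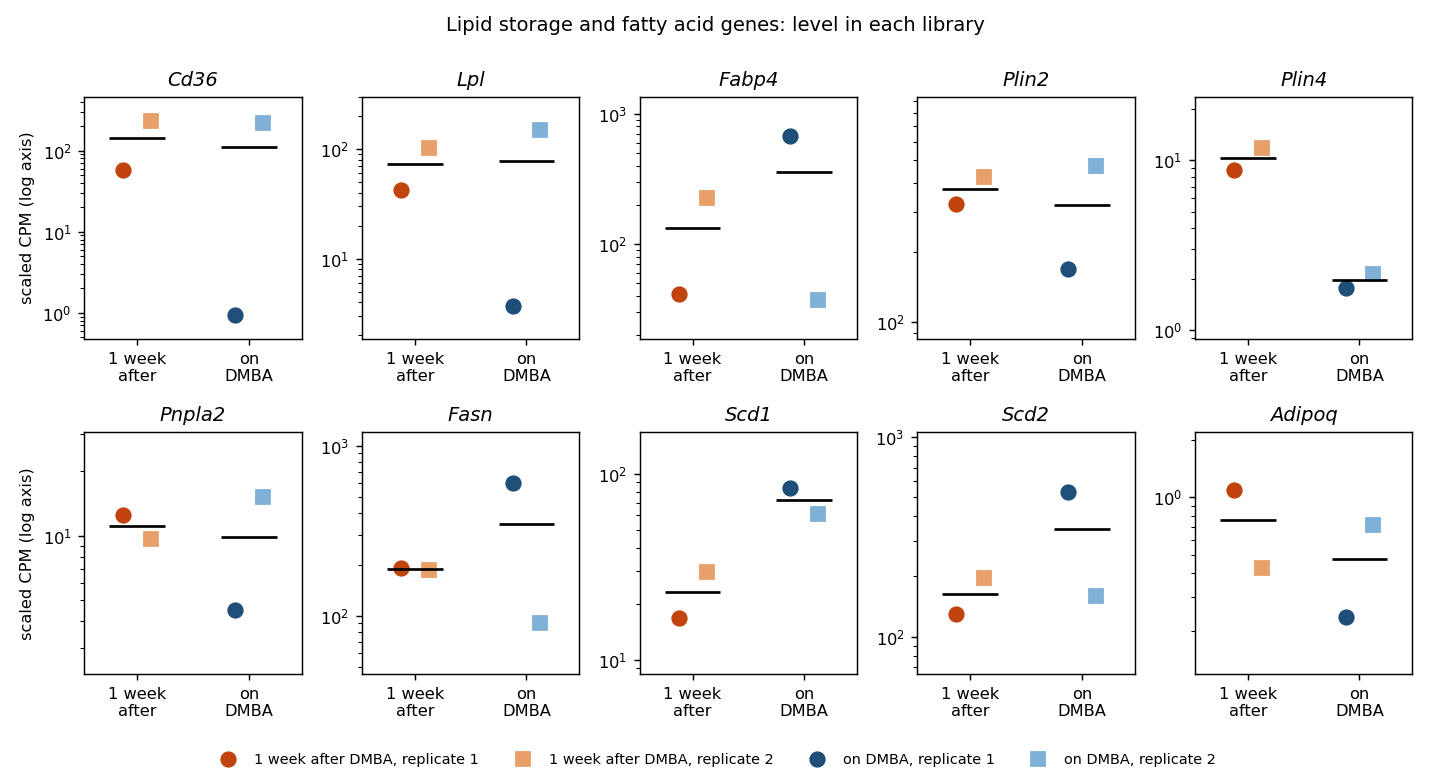
Level of each of the 10 lipid genes (scaled CPM, log axis) in the 2 libraries taken 1 week after DMBA and the 2 on DMBA; bars are group means. The groups separate for Plin4 (8.75 and 11.8 at 1 week, 1.78 and 2.15 on DMBA) and Scd1 (16.7 and 29.8 at 1 week, 84.0 and 60.7 on DMBA) and overlap for the other 8.

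For the other 7 genes tested, the gap between the on-DMBA replicates was larger than the gap between the groups. The same held for 78.2% of all genes tested. Of the 10 lipid genes, 4 were highest in on-DMBA replicate 1 (Fabp4, Scd1, Scd2 and Fasn) and the remaining 6 were lowest there (Cd36, Lpl, Plin2, Plin4, Pnpla2 and Adipoq). Of all genes tested, 41.7% were highest and 37.5% lowest in that library, against 44.4% and 55.6% of the 9 lipid genes tested, so the share of highest values was close to the background. Of the 115 other lipid genes tested, in 8 lists described below, 40% were highest and 29.6% lowest there. The division varied by list: of 15 uptake genes 8 were highest and 1 lowest, and of 9 lipoprotein lipase partners 2 and 5. For 17 fatty acid synthesis genes the counts were 9 and 6, for 7 droplet genes 3 and 3, and for 11 breakdown genes 4 and 4. For 14 triglyceride synthesis genes they were 3 and 4, for 19 oxidation genes 9 and 2, and for 23 regulators 8 and 9.

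Cd36, the fatty acid uptake receptor, was at 58.5 and 231 scaled CPM at 1 week, against 0.950 and 222 scaled CPM on DMBA. On-DMBA replicate 1 held 8 reads of it, against 374 to 1623 reads in the other libraries. The 2 on-DMBA values differed 233-fold, and the on-DMBA range enclosed 1-week replicate 1 but not 1-week replicate 2. The log2 difference was 2.70 (SE 2.37, limma adjusted p = 0.9997). It was -0.93 without on-DMBA replicate 1 (adjusted p = 0.884) and 6.33 without on-DMBA replicate 2 (adjusted p = 2.62e-30), so the library kept set the direction. On recovered reads the log2 difference was smaller, at 0.35 in edgeR and 0.29 in DESeq2, and the 1-week mean was 1.30 times the on-DMBA mean.

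Lpl, which hydrolyses triglyceride of circulating lipoproteins, was at 42.5 and 104 scaled CPM at 1 week, against 3.68 and 151 scaled CPM on DMBA. The on-DMBA values lay on either side of both 1-week values. Its log2 difference was 1.41 (SE 1.72, limma adjusted p = 0.9997), with -1.18 without on-DMBA replicate 1 (adjusted p = 0.485) and 4.0 without on-DMBA replicate 2 (adjusted p = 1.78e-12). On recovered reads the direction turned, to -0.10 in edgeR and -0.16 in DESeq2. Gpihbp1 is the endothelial protein that anchors lipoprotein lipase to the capillary wall. Its level was 8.44 and 23.1 scaled CPM at 1 week, against 0.119 and 3.95 scaled CPM on DMBA. It did not pass (log2 difference 3.13, SE 1.18), and its value in on-DMBA replicate 1 was 1 read, under the floor of 3 reads. Angptl4, a secreted inhibitor of lipoprotein lipase, was at 81.1 and 136 scaled CPM at 1 week, against 9.38 and 102 scaled CPM on DMBA.

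Fabp4 is a cytosolic fatty acid carrier of fat cells, macrophages and capillary endothelium. Its level was 41.1 and 226 scaled CPM at 1 week, against 678 and 37.3 scaled CPM on DMBA. The highest and the lowest library were both on DMBA and differed 18.2-fold, and the 1-week libraries differed 5.49-fold. The log2 difference was -0.72 (SE 1.57, limma adjusted p = 0.9997), 1.36 without on-DMBA replicate 1 (adjusted p = 0.268) and -2.81 without on-DMBA replicate 2 (adjusted p = 3.94e-05); without 1-week replicate 1 it was 0.50 (adjusted p = 0.9999). On recovered reads it was -1.37 in edgeR and -1.42 in DESeq2. In the library with the most Fabp4, on-DMBA replicate 1, the marker sums were 11.8 scaled CPM for endothelium, 72.9 scaled CPM for macrophages and 23.0 scaled CPM for fat cells, against 202, 26584 and 26.4 scaled CPM in on-DMBA replicate 2. Of the 11 macrophage markers, 10 were lowest in on-DMBA replicate 1 (90.9%, against 37.5% of all genes tested). Among these 10, Lyz2 was at 1.19 and 8839 scaled CPM in on-DMBA replicates 1 and 2. The exception was Gpnmb, at 64.1 and 17.1 scaled CPM in on-DMBA replicates 1 and 2. The part of these cell types in the Fabp4 values was not tested. Fabp5, the fatty acid binding protein of epidermis, was at 337 and 629 scaled CPM at 1 week, against 7438 and 209 scaled CPM on DMBA, and so had its highest and lowest values in the same 2 libraries as Fabp4. Of the 50-base words of Fabp4 transcripts in GENCODE M21, 0 occurred in transcripts of another gene.

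Plin2, the perilipin that coats lipid droplets in most cell types, was at 323 and 425 scaled CPM at 1 week, against 169 and 470.2 scaled CPM on DMBA. Its on-DMBA values enclosed both 1-week values, and its log2 difference was 0.39 (SE 0.73, limma adjusted p = 0.9997). Pnpla2, the first lipase of triglyceride breakdown, was at 12.5 and 9.70 scaled CPM at 1 week, against 4.51 and 15.3 scaled CPM on DMBA. Here too the on-DMBA values lay outside the 1-week values, and the log2 difference was 0.37 (SE 0.80, limma adjusted p = 0.9997). Both were lowest in on-DMBA replicate 1, and the sign of both turned without it, to -0.34 for Plin2 and -0.45 for Pnpla2. On recovered reads Plin2 was at 0.24 in edgeR and 0.20 in DESeq2, and Pnpla2 at 0.20 in edgeR and 0.16 in DESeq2. Of the 50-base words of Plin2 transcripts, 2.57% also occurred in another gene, Gm12551.

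Fasn, which makes palmitate, was at 190.0 and 185 scaled CPM at 1 week, against 602 and 90.3 scaled CPM on DMBA. The 1-week values were nearly equal and lay between the on-DMBA values, which differed 6.67-fold. Its log2 difference was -0.32 (SE 0.98, limma adjusted p = 0.9997), 1.05 without on-DMBA replicate 1 (adjusted p = 0.712) and -1.68 without on-DMBA replicate 2 (adjusted p = 0.038). On recovered reads it was -0.80 in edgeR and -0.84 in DESeq2, and after quantile normalization it was -0.089. Scd2, the desaturase expressed in many tissues including skin, was at 129 and 197 scaled CPM at 1 week, against 529 and 159 scaled CPM on DMBA. On-DMBA replicate 1 stood apart, and on-DMBA replicate 2 lay between the 1-week libraries. Its log2 difference was -0.86 (SE 0.76, limma adjusted p = 0.9997), 0.0039 without on-DMBA replicate 1 (adjusted p = 1) and -1.73 without on-DMBA replicate 2 (adjusted p = 0.0277). Whether Scd2 and its paralog Scd1 differ in their response was not tested. Of their 50-base words, 4.56% for Scd1 and 3.97% for Scd2 also occurred in other genes, among them the other Scd genes, so a small part of their reads may have been shared.

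Adipoq, the fat cell hormone adiponectin, was near the detection floor. It had 7 and 3 reads at 1 week, against 2 and 4 reads on DMBA. These equal 1.09 and 0.428 scaled CPM at 1 week, against 0.237 and 0.718 scaled CPM on DMBA. The exact Poisson 95% intervals overlapped, from 0.44 to 2.25 in 1-week replicate 1 as the highest to 0.0288 to 0.858 in on-DMBA replicate 1 as the lowest. They cover counting error only, and Adipoq was not tested in the main fit, so no conclusion on a difference is drawn. Other fat cell genes were low too: Plin1, the main droplet coat of fat cells, was at 1.72 and 0.428 scaled CPM at 1 week and 0.831 and 1.44 scaled CPM on DMBA. Cidec, a droplet fusion protein, was at 0.938 and 0.285 scaled CPM at 1 week and 0.356 and 1.08 scaled CPM on DMBA. Each library had 1 of the 13 adipocyte markers at 0, a different one in some libraries (Retn, Pck1 or Cfd), and Lipe was the most abundant.

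**Figure D3:**
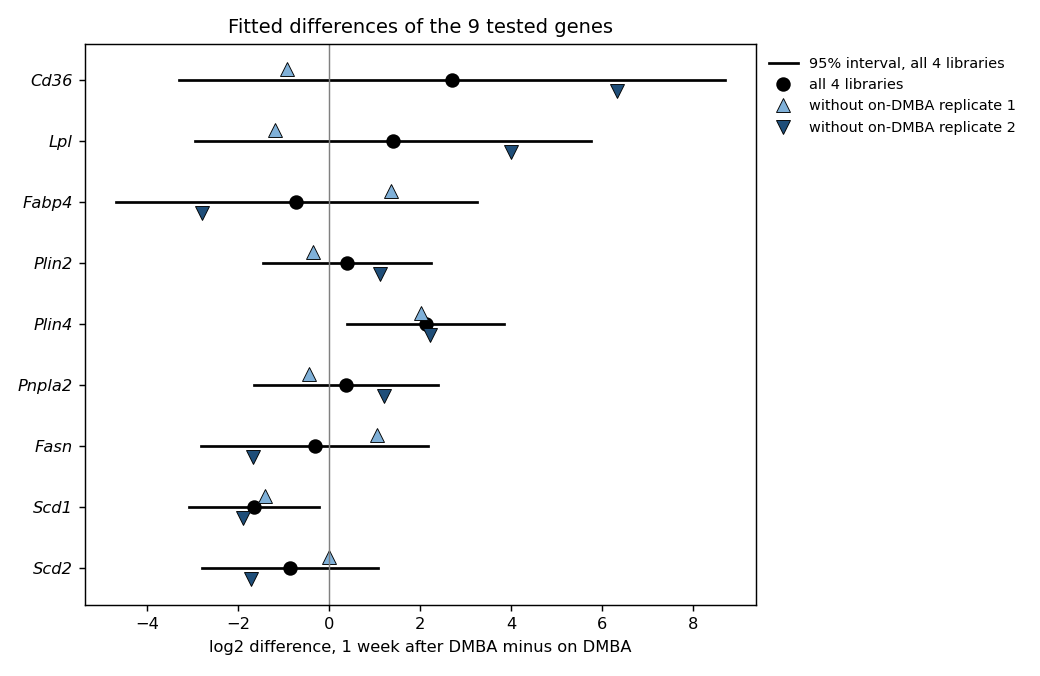
Fitted log2 difference, 1 week after DMBA minus on DMBA, of the 9 lipid genes tested, with the unadjusted 95% interval over all 4 libraries (circles and lines) and the value without on-DMBA replicate 1 or 2 (triangles). Plin4 (2.01 and 2.23) and Scd1 (-1.42 and -1.89) kept their sign whichever on-DMBA library was left out, and the other 7 changed sign.

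Relative to exonic length (GENCODE M21, GRCm38), the order of levels also depended on the library. Per kilobase, Plin2 led in 1-week replicate 1 (171 scaled CPM per kb) and on-DMBA replicate 2 (249 scaled CPM per kb), and Fabp4 led in 1-week replicate 2 (252 scaled CPM per kb, beside 225 for Plin2) and on-DMBA replicate 1 (757 scaled CPM per kb). Adipoq was lowest per kilobase in both 1-week libraries (0.847 and 0.331 scaled CPM per kb) and in on-DMBA replicate 1 (0.184 scaled CPM per kb). In on-DMBA replicate 2 Plin4 was lower still, at 0.373 against 0.556 scaled CPM per kb for Adipoq.

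Promoter sequence was matched by symbol in RefSeq (GRCm38.p6) for 6 of the 10 genes, and 3 are shown. Plin4 is shown because its groups did not overlap, and Fasn and Cd36 because they stood at opposite ends in on-DMBA replicate 1. Each run is the 250 bases before the gene start, read along the gene, with the letters CCAAT or their reverse complement in capitals. The windows are chr17:56109783-56110032 for Plin4, chr11:120824548-120824797 for Fasn and chr5:17835897-17836146 for Cd36, all on the minus strand.
Plin4: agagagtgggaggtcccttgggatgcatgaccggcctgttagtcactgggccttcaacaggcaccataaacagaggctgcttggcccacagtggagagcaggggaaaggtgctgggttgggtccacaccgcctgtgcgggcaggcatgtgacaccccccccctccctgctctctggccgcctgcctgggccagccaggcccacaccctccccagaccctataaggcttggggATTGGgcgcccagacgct
Fasn: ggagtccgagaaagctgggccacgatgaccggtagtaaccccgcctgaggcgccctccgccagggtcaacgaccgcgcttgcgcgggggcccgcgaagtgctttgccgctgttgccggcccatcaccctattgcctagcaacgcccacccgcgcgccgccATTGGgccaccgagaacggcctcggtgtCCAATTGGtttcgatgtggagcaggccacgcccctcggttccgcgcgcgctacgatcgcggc
Cd36: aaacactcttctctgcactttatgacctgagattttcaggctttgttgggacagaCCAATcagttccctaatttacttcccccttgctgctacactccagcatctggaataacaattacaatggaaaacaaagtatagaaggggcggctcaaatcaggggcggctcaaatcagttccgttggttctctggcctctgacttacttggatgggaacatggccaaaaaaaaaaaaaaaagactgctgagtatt
CCAAT is the sequence bound by the factor NF-Y in many lipogenic promoters. On either strand it occurred in 5 of the 6 windows (Cd36, Plin2, Plin4, Adipoq and Fasn), and in 33.8% of all 32851 windows of this length. The Fasn window held 3 matches, 2 of which overlap on opposite strands. GCGTG, the core letters bound by the aryl hydrocarbon receptor that DMBA can activate, occurred in Plin2 and Fasn (not in capitals here) and in 28.2% of all windows. The PPAR-RXR direct repeat (AGGTCA, any letter N, AGGTCA), TCACNCCAC (SREBP), CACGTG (E-box) and TATAAA were in none of the 6 windows and in 0.0335%, 1.05%, 6.02% and 12.4% of all windows.

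Other genes of lipid metabolism, in 8 lists by role, were tested too, and 0 of 115 passed in limma, edgeR or DESeq2. Both 1-week libraries lay above both on-DMBA libraries for 18 of the 115 (15.7%) and below for 10 (8.7%), against 14.0% and 9.14% of all genes. The median log2 difference was -0.01 over the 115 genes, 0.37 over the 9 lipid genes above and -0.02 over all genes tested.

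In uptake, binding and activation of fatty acids, 2 of 15 genes tested were higher and 2 lower at 1 week without overlap. These are 13.3% and 13.3%, against 14.0% and 9.14% of all genes. The list's median log2 difference was -0.15. Acsl1, an acyl-CoA synthetase that activates long-chain fatty acids, was at 17.2 and 31.2 scaled CPM at 1 week, against 58.5 and 40.4 scaled CPM on DMBA. Dbi, an acyl-CoA binding protein, was at 45.8 and 62.2 scaled CPM at 1 week, against 152 and 74.1 scaled CPM on DMBA. Both lay lower at 1 week, while Cav1, the caveolar coat protein, lay higher at 244 and 262 scaled CPM at 1 week, against 220.3 and 57.4 scaled CPM on DMBA. Acsl4, which prefers arachidonic acid, overlapped at 63.6 and 132 scaled CPM at 1 week and 104 and 118 scaled CPM on DMBA.

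Among 9 partners of lipoprotein lipase and genes of circulating triglyceride, 2 were higher (Gpihbp1 and Lmf1) and 1 was lower (Vldlr) without overlap. These are 22.2% and 11.1%, against 14.0% and 9.14% of all genes. The median log2 difference was 0.60. Vldlr, a lipoprotein receptor, was at 7.50 and 5.71 scaled CPM at 1 week, against 86.9 and 16.5 scaled CPM on DMBA (log2 difference -2.45, SE 0.92). Leaving out on-DMBA replicate 2 gave a limma adjusted p of 4.76e-10, and leaving out on-DMBA replicate 1 gave 0.411. Lmf1, needed to fold lipoprotein lipase, was at 12.3 and 14.7 scaled CPM at 1 week, against 8.79 and 8.61 scaled CPM on DMBA, a log2 difference of 0.60 (SE 0.60).

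Lipid droplet coat genes other than those above included 1 of 7 tested that was higher without overlap (14.3%, against 14.0% of all genes). This was Hilpda, a hypoxia-inducible droplet protein that inhibits adipose triglyceride lipase. It was at 26.6 and 50.3 scaled CPM at 1 week, against 17.9 and 20.3 scaled CPM on DMBA. Plin3, a coat of small droplets in most cells, was at 91.0 and 129.9 scaled CPM at 1 week and 79.8 and 105 scaled CPM on DMBA, with overlapping groups. The list's median log2 difference was 0.11.

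Triglyceride synthesis had 3 of 14 genes higher (Agpat1, Lpin3 and Mogat2) and 2 lower (Agpat3 and Dgat1) without overlap. These are 21.4% and 14.3%, against 14.0% and 9.14% of all genes. The median log2 difference was 0.30. Agpat3, an acyltransferase of phospholipid and triglyceride synthesis, was at 29.9 and 38.7 scaled CPM at 1 week, against 81.9 and 81.7 scaled CPM on DMBA. Its log2 difference was -1.26 with all 4 libraries (SE 0.48, limma adjusted p = 0.9997). It was -1.25 and -1.26 when on-DMBA replicate 1 or replicate 2 was left out. Lpin3, a phosphatidate phosphatase, was at 37.4 and 32.2 scaled CPM at 1 week, against 27.3 and 5.92 scaled CPM on DMBA. The lowly expressed acyltransferase gene Mogat2 was at 1.56 and 2.71 scaled CPM at 1 week, against 0.831 and 0.359 scaled CPM on DMBA. Mogat2 passed the filter through the 1-week libraries only. On-DMBA replicate 2 held 2 reads of it, under the floor of 3 reads, and no conclusion is drawn from its separation. Of the enzymes of the last step, Dgat1 was nearly level at 25.2 and 25.7 scaled CPM at 1 week, against 26.8 and 26.9 scaled CPM on DMBA. Dgat2 was at 8.75 and 12.3 scaled CPM at 1 week, against 35.1 and 6.10 scaled CPM on DMBA.

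Triglyceride breakdown had 2 of 11 genes higher and 0 lower without overlap (18.2% and 0%, against 14.0% and 9.14% of all genes). The median log2 difference was -0.10. Mgll, the lipase of monoglycerides, was at 27.4 and 53.1 scaled CPM at 1 week, against 21.5 and 16.0 scaled CPM on DMBA. Lipe, the hormone-sensitive lipase, was at 14.7 and 19.8 scaled CPM at 1 week, against 6.89 and 13.1 scaled CPM on DMBA. The 2 partners of Pnpla2 overlapped between the groups and ran opposite ways within the on-DMBA group. Abhd5, its activator, was at 32.2 and 45.4 scaled CPM at 1 week, against 80.0 and 28.9 scaled CPM on DMBA. G0s2, its inhibitor, was at 12.5 and 20.4 scaled CPM at 1 week, against 0.475 and 32.8 scaled CPM on DMBA. Lipa, the lysosomal acid lipase abundant in macrophages, was at 137 and 280 scaled CPM at 1 week, against 20.3 and 369 scaled CPM on DMBA, in the same order of libraries as Lpl within the on-DMBA group.

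Of 17 other genes of fatty acid synthesis, elongation and desaturation, 2 were higher and 0 lower at 1 week without overlap. These are 11.8% and 0%, against 14.0% and 9.14% of all genes. The median log2 difference was 0.12. The 2 were Acacb, the mitochondrial acetyl-CoA carboxylase, at 8.28 and 11.7 scaled CPM at 1 week, against 4.99 and 5.03 scaled CPM on DMBA, and Fads2, the delta-6 desaturase, at 10.9 and 14.1 scaled CPM at 1 week, against 10.7 and 7.36 scaled CPM on DMBA. Acaca, the cytosolic acetyl-CoA carboxylase, was at 58.6 and 81.3 scaled CPM at 1 week, against 301 and 56.4 scaled CPM on DMBA. Acly, which supplies acetyl-CoA, was at 172 and 267 scaled CPM at 1 week, against 314 and 230.4 scaled CPM on DMBA, and the elongase Elovl6 was at 11.7 and 22.7 scaled CPM at 1 week, against 96.8 and 8.97 scaled CPM on DMBA. These 3 were highest in on-DMBA replicate 1, as Fasn was, while Acacb was level between the on-DMBA libraries (42 and 28 reads). Of the 17 genes, 9 (52.9%) were highest and 6 (35.3%) lowest in that library, against 41.7% and 37.5% of all genes tested.

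Fatty acid oxidation had 1 of 19 genes higher and 4 lower at 1 week without overlap (21.1% lower, against 9.14% of all genes), with a median log2 difference of -0.38 and 0 genes past the threshold. Cpt1a, the gatekeeper of mitochondrial fatty acid import, was at 66.1 and 90.6 scaled CPM at 1 week, against 143 and 136 scaled CPM on DMBA (log2 difference -0.85, SE 0.49, adjusted p = 0.9997). Hadh, an enzyme of the oxidation cycle, was at 25.8 and 38.1 scaled CPM at 1 week, against 176 and 39.5 scaled CPM on DMBA, and the peroxisomal enzyme gene Ehhadh was at 2.66 and 5.99 scaled CPM at 1 week, against 9.38 and 6.28 scaled CPM on DMBA. For Hadh on-DMBA replicate 2 lay close to 1-week replicate 2, and for Cpt1a the on-DMBA libraries were close to each other.

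Of 23 regulators of lipid genes and fat cells, 5 were higher and 1 was lower without overlap (21.7% and 4.35%, against 14.0% and 9.14% of all genes), with a median log2 difference of 0.08. Nr1h3, the liver X receptor alpha that induces Scd1 and Srebf1 in liver, was at 45.6 and 59.8 scaled CPM at 1 week, against 1.66 and 9.87 scaled CPM on DMBA. Its log2 difference was 3.48 (SE 0.90, limma adjusted p = 0.9997), 2.35 without on-DMBA replicate 1 (adjusted p = 0.00129) and 4.61 without on-DMBA replicate 2 (adjusted p = 4.84e-16). Cdh13, a surface receptor that binds adiponectin, was at 67.4 and 60.6 scaled CPM at 1 week, against 20.5 and 8.61 scaled CPM on DMBA. Its log2 difference was 2.22 (SE 0.62), 2.82 without on-DMBA replicate 1 (adjusted p = 3.82e-05) and 1.61 without on-DMBA replicate 2 (adjusted p = 0.0148). Nr1h3 and Cdh13 were called when 1 of the on-DMBA libraries was left out, whichever it was, but not with all 4 libraries and not when a 1-week library was left out (adjusted p = 0.9999 for both genes in both fits). The endothelial sum was higher at 1 week as well, and its part in these 2 differences was not tested. Ebf1, a transcription factor of B cells and fat precursors, was at 10.2 and 18.8 scaled CPM at 1 week, against 0 and 9.69 scaled CPM on DMBA. Cebpb, a factor of early fat cell differentiation, was at 442 and 371 scaled CPM at 1 week, against 148 and 336 scaled CPM on DMBA, and Rxra, the partner of PPARs and liver X receptors, was at 153 and 141 scaled CPM at 1 week, against 359 and 179 scaled CPM on DMBA, both without overlap. Other regulators overlapped between the groups: Pparg was at 4.22 and 6.70 scaled CPM at 1 week and 5.82 and 4.31 scaled CPM on DMBA, Srebf1 at 126 and 112 scaled CPM at 1 week and 162 and 74.3 scaled CPM on DMBA, and Cebpa at 207 and 181 scaled CPM at 1 week and 89.8 and 254 scaled CPM on DMBA.

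**Figure D4:**
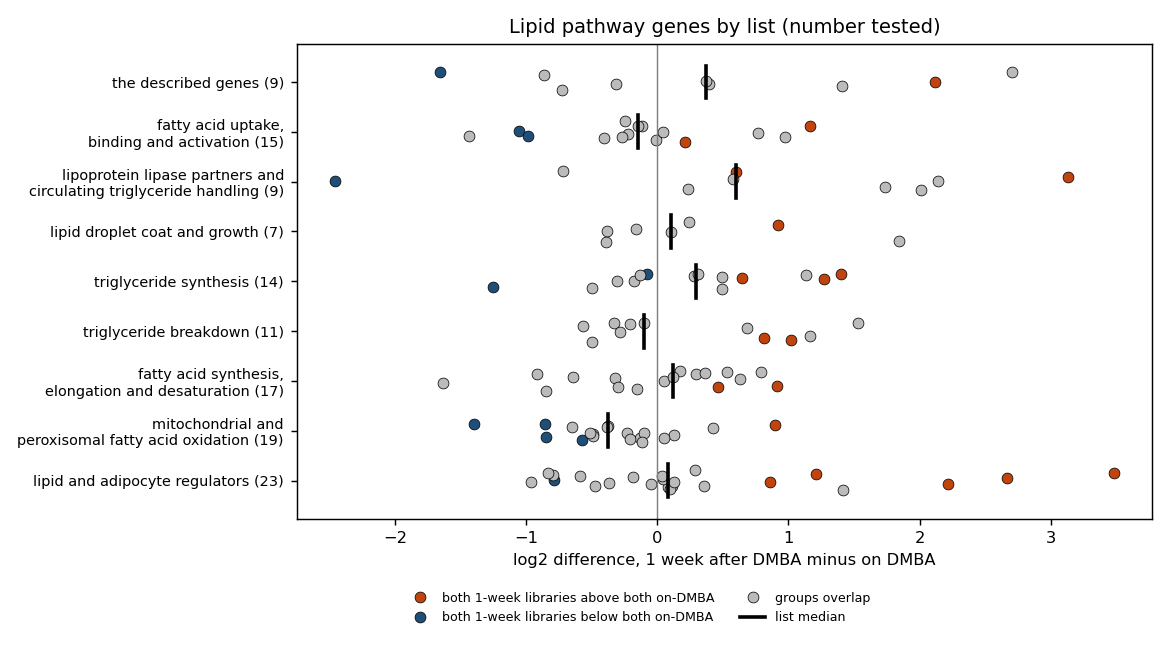
Fitted log2 difference, 1 week after DMBA minus on DMBA, of each gene tested in the 10-gene set and the 8 other lipid lists; colour marks genes whose groups did not overlap, and black bars are list medians. Medians lie between -0.38 (fatty acid oxidation) and 0.60 (lipoprotein lipase partners), and 0 genes passed the test.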

How the data were processed

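RNA from sorted tumour cells (total RNA, ribosomal RNA removed, strand-marking dUTP library, per the labels' protocols) was sequenced from 4 mice. Per the submitters' processing notes, the tools were edgeR 3.2.3, HTSeq, TopHat2 2.1 and CASAVA 1.8.2 and the build mm9, with no roles listed; no annotation or strand option for counting is stated. The authors deposited a normalised signal per gene symbol and library, named CPM, whose columns sum to 867697 to 1149287 and which is called scaled CPM here. The design had assumed plain CPM; the planned log-scale test was kept.

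Dividing by the smallest step gave whole reads for 100% of values (tolerance 0.01 reads). The 15419 genes that reached 1 scaled CPM in 2 or more libraries were tested with limma 3.58.1 in R 4.3.3 (variance trend, log2(scaled CPM + 0.5), two-sided, Benjamini-Hochberg over all genes). Fold changes on this scale understate low genes. edgeR 4.0.16 (quasi-likelihood) and DESeq2 1.42.0 were run on recovered reads. Other alternatives were pseudocounts of 0.1 and 1, a filter of 5 and none, and median ratio and quantile scaling. Further ones were other eBayes settings, a replicate block, and leaving out each library. A group of 1 library has no spread of its own. In fits without an on-DMBA library, the standard error came mostly from the variance trend over all genes. For example, the standard error without on-DMBA replicate 2 was 0.535 for both Cd36 and Dgat1. Their 1-week replicates differed by 1.98 and 0.028 in log2. In fits without a 1-week library, the standard error also followed the on-DMBA spread of each gene. Without 1-week replicate 1 it was 3.07 for Cd36 and 1.00 for Dgat1. The on-DMBA replicates of these genes differed by 7.26 and 0.0045 in log2. The tests were checked on simulated counts with the same spread in both groups. That check does not cover the unequal spread here. The median absolute log2 difference over all genes tested was 0.51 between the 1-week replicates and 1.02 between the on-DMBA replicates. Replicate numbers mark different mice.

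The 10 genes and all lists were chosen with earlier results of these data known. The text names the 10 genes, a fixed set of pathway genes, up to 3 genes per list with the smallest p among those without overlap, and the most abundant marker of each cell type, of which Col3a1, of fibroblasts, was at 20761 and 27662 scaled CPM at 1 week and 68.5 and 20658 scaled CPM on DMBA. Agpat1, Krt79, Gpnmb, Cebpb, Rxra, Retn, Pck1, Cfd and Hdgfrp2 were added after their values were seen. Promoters come from RefSeq GRCm38.p6, and lengths, overlaps and 50-base word matches from GENCODE M21.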

Additional observations from a re-analysis of the deposited data

How the results depend on the processing

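The 9 lipid genes tested kept their direction, and stayed on the same side of the threshold, in 97 of 99 values under alternatives that kept all 4 libraries. The exceptions were Lpl in edgeR (-0.10) and DESeq2 (-0.16); the cause was not tested. The median of the 9 genes (0.37) was -0.10 in edgeR, -0.16 in DESeq2 and 0.0014 after quantile normalization, which moved the median of all genes to -0.15, against -0.02. Genes called over all genes were 288 with the replicate block and 19 in DESeq2, against 0; the block called 0 of the lipid genes. Replicate numbers do not pair the mice, and deviations of same-numbered libraries correlated at 0.015 over 15419 genes. Leaving out 1 library gave 0 to 3761 genes called over all genes (516 without on-DMBA replicate 1, 3761 without on-DMBA replicate 2), 0 to 7 lipid genes called (7 without on-DMBA replicate 2: Cd36, Lpl and Plin4 higher, Fabp4, Fasn, Scd1 and Scd2 lower; background 14.3% higher and 10% lower), 3 to 9 without overlap and a median of -0.34 to 1.13. The ranges were -2.81 to 1.36 for Fabp4, -0.93 to 6.33 for Cd36, -1.18 to 4.0 for Lpl, -0.34 to 1.13 for Plin2, -1.73 to 0.0039 for Scd2, -1.68 to 1.05 for Fasn and -0.45 to 1.20 for Pnpla2. Plin4 (1.91 to 2.33) and Scd1 (-2.06 to -1.25) kept their sign. With 1 library left in a group, the groups overlap only where that library lies between the 2 of the other group. No share of all genes without overlap was taken for these fits. The 3 to 9 lipid genes without overlap therefore have no background, and no conclusion is drawn from them. Depth limits Adipoq most, with 2 to 7 reads a library. With all 4 libraries the p-values rest on the spread between 2 mice a group, moderated by the variance trend over all genes. In fits without an on-DMBA library they rest mostly on that trend, and little on the spread of each gene. In fits without a 1-week library they also depend on the spread of each gene between the on-DMBA libraries.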
